A study of Mus musculus with 8 samples.

Results

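Gamma-delta T cells were examined in the livers of mice with nonalcoholic steatohepatitis (NASH) and fibrosis and of control mice. They were taken as the barcodes with more than 500 detected genes and under 25% mitochondrial UMIs (unique molecular identifiers, each counting 1 captured RNA molecule) that held at least 2 UMIs of Trdc, the constant region of the T cell receptor delta chain, and at least 2 UMIs of Cd3d, Cd3e and Cd3g together, the CD3 chains that carry the receptor's signal. They also held no UMI of Cd8b1 (CD8 T cells), Cd79a (B cells), Csf1r (macrophages) or Klrb1c (NK cells). The rule gave 411 gamma-delta T cells among 80474 kept cells of 88581 barcodes. All mice were wild-type C57BL/6 and gave 1 liver library each. The 2 control mice were labelled as control, the 3 HFD+F+CCl4 mice received high-fat diet, fructose solution and intraperitoneal carbon tetrachloride (CCl4, a hepatotoxin), and the 3 WD+F+CCl4 mice received western diet with the same fructose and CCl4, both models for 16 weeks. The libraries came from whole dissociated liver after heart perfusion, without a sort for T cells, and the labels gave neither age nor sex. Both models together are called NASH mice here.

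Gamma-delta T cells carry a receptor of a gamma and a delta chain in place of the alpha and beta chains of most T cells, and many of them live in tissues. In mice a large part of them is committed in the thymus to 1 of 2 programs. Type 17 cells respond to IL-23 and IL-1 and can release IL-17, and many of them use the Vγ6 or Vγ4 chain. Type 1 cells depend on T-bet (Tbx21) and Eomes, can release interferon-γ and cytotoxic granules and express NK cell receptors. In the liver, IL-17 from gamma-delta T cells is known from work on steatohepatitis and fibrosis.

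The 411 cells were unevenly spread over the mice. The control mice held 175 and 10 cells, the HFD+F+CCl4 mice 24, 38 and 55, and the WD+F+CCl4 mice 58, 39 and 12. Control mouse 1 thus gave most of the control cells, and control mouse 2 was a shallow library, with 6135827 UMIs in total against 36699315 in control mouse 1 and 46275590 to 64855024 in the NASH mice. Its gamma-delta T cells had a median of 1495 UMIs, against 2686 in control mouse 1 and 2014 to 2565 in the NASH mice. Summed over cells, the gamma-delta T cells gave 548461 and 16788 UMIs in the control mice, 54964, 109032 and 153569 in the HFD+F+CCl4 mice and 170958, 100418 and 28384 among the WD+F+CCl4 mice. In control mouse 2 a single UMI was therefore worth 59.6 CPM (counts scaled to a common total in every mouse), so values of that mouse were coarse. Levels below are CPM of the UMIs of a mouse's gamma-delta T cells unless stated otherwise.

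The libraries also stood apart in ways that reached all cells. Over all kept cells, the mitochondrial gene mt-Nd3 was at 3.10 and 4.52 CPM in the control mice and at 521 to 1402 CPM in the NASH mice. Gm28438 went the other way, at 457 and 259 CPM in the control mice against 0.155 to 1.38 CPM. Gm10076 was at 254 and 108 CPM in the control mice against 711 to 1568 CPM. What set these genes apart between the libraries was not tested. Albumin (Alb) was at 1823 and 1895 CPM in the control mice against 42.3 to 664 CPM, and the immunoglobulin light chain Igkc at 5582 and 6323 CPM against 634 to 2300 CPM. Lyz2, lysozyme of macrophages and granulocytes, was at 2250 and 2703 CPM in the control mice and at 6033 to 8430 CPM in the NASH mice. No batch was given in the labels, and a difference between the libraries cannot be told apart from a difference between control and NASH mice. Of the barcode sequences, 732 were shared by 2 or more libraries among the kept cells and 0 among the gamma-delta T cells.

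The rule was checked against the other chains. Of the gamma-delta T cells with 3 or more Trdc UMIs, 87.7% held a UMI of a constant gamma gene (Tcrg-C1 to Tcrg-C4), and of the 93 cells just inside the limit, with 2 Trdc UMIs, 83.9% did. Of the 145 cells just outside it, with 1 Trdc UMI, 55.2% did, and of the 5125 cells that met every other limit with no Trdc UMI (called Trdc-zero T cells), 24.6% did. Trac, the alpha chain constant region, was seen in 18.6%, 14.0%, 37.2% and 68.1% of those bands, with median depths of 2598, 2194, 1989 and 2293 UMIs. A beta chain constant gene (Trbc1 or Trbc2) was seen in 86.8%, 81.7%, 85.5% and 92.2%, so beta chain transcripts barely set the bands apart, and only 59 of the 411 cells had none. Trdc was rare in other cell types. Among B cells 0 of 4690 had 2 or more Trdc UMIs, and among macrophage-lineage cells with Csf1r and no CD3 UMI 1 of 35324 did, or 0.00283%. Among NK cells 6 of 527 did, or 1.14%. Of these, 5 lay among the 206 NK cells of control mouse 1 (2.43%) and 1 among the 110 of WD+F+CCl4 mouse 1. At least 1 Trdc UMI was seen in 19 of 1968 and 3 of 169 B cells of the control mice and in no B cell of the NASH mice. No doublet caller was run, and 7 of the gamma-delta T cells lay above the 95th percentile of UMIs of their library.

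The share of gamma-delta T cells among kept cells was 1.62% and 0.240% in the control mice, 0.215%, 0.375% and 0.516% in the HFD+F+CCl4 mice and 0.483%, 0.396% and 0.102% among the WD+F+CCl4 mice. The exact 95% binomial interval in control mouse 1 was 1.39% to 1.88%, which lay above every other mouse, while control mouse 2 lay among the NASH mice. NASH mice had 0.348% ± 0.160 (SD, n = 6) and control mice 0.931% ± 0.977 (SD, n = 2), a difference that an exact two-sided permutation test over mice did not set apart (p = 0.179, adjusted p = 0.238 over 4 measures). Among kept cells with at least 2 CD3 UMIs, gamma-delta T cells made up 4.50% and 1.36% in the control mice, 8.11%, 3.90% and 5.00% in the HFD+F+CCl4 mice and 7.80%, 4.37% and 1.01% among the WD+F+CCl4 mice, and the groups overlapped (exact permutation p = 0.5). Without control mouse 1 the first difference turned, from -0.583 to 0.108 percentage points. Thinning to 800 UMIs, which left out cells below that, came with limits of 1 Trdc and 1 CD3 UMI in place of 2. The difference among kept cells was then -1.44 percentage points. At 1 or more Trdc UMIs without thinning it was -1.08 (exact permutation p = 0.0714), and among cells with more than 1000 genes -1.14. The exact permutation p was 0.0357 after thinning and with more than 1000 genes. The shares therefore gave no stable order of control and NASH mice.

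**Figure D1:**
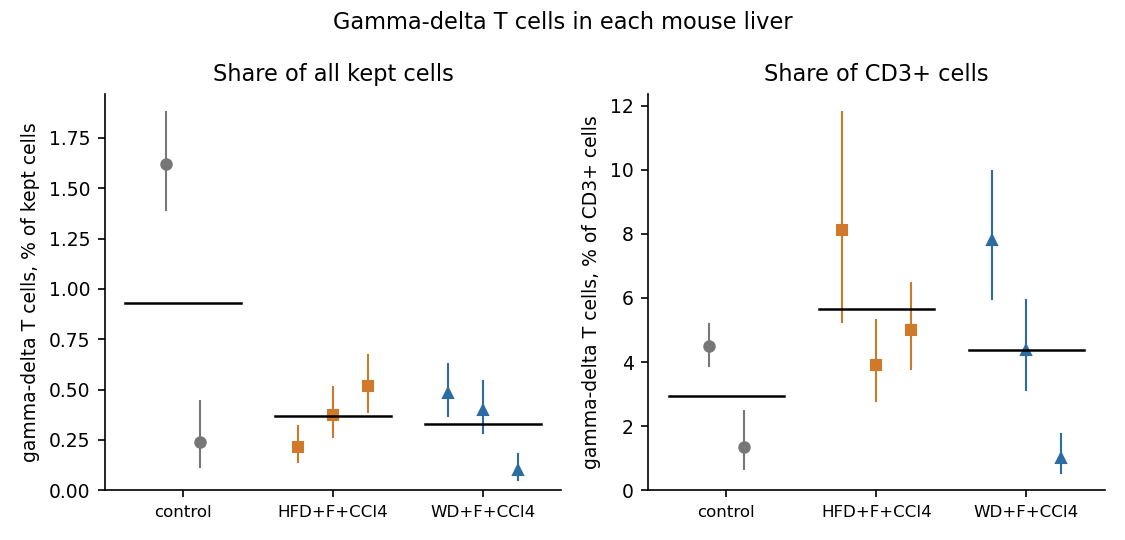
Share of gamma-delta T cells among kept cells (left, %) and among cells with CD3 UMIs (right, %) in each mouse, with exact 95% binomial intervals as vertical lines and group means as horizontal bars. Control mouse 1 stands alone at 1.62% on the left, and the groups overlap on the right.

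The genes behind the receptor lie in compact loci. Trdc lies at chr14:54142851-54148868 and Trdv4, a delta variable gene of the same locus that pairs with Vγ6 in many type 17 cells, at chr14:54074905-54075515 (build GRCm38). The gamma genes lie on chromosome 13, with Tcrg-V6 at chr13:19190356-19190929 and Tcrg-C1, the constant gene next to it, at chr13:19214103-19217024. Tcrg-V1 lies at chr13:19339989-19340454 beside Tcrg-C4 at chr13:19344558-19352756. The libraries were made with a kit that reads transcript 3′ ends, and counts of cells with a UMI of a variable gene are minimum counts.

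Among the variable genes seen, Trdv4 was called between control and NASH mice, and Tcrg-V6 and Tcrg-V1 were not tested. Trdv4 was found in 2 of 185 control cells, 52 of 117 HFD+F+CCl4 cells and 40 of 109 WD+F+CCl4 cells. Its level was 1.82 and 59.6 CPM in the control mice, the latter from 1 UMI, 127, 321 and 475 CPM in the HFD+F+CCl4 mice and 176, 538 and 211 CPM among the WD+F+CCl4 mice. Every NASH mouse was above both control mice. It rose with NASH, with 205 UMIs against 2 and a pooled ratio of 93.9 (95% counting interval 25.7 to 780, edgeR adjusted p = 0.00132). Its log2 fold change was 2.79 without control mouse 1, and the call was lost. Tcrg-V6 was found in 0 control cells, 18 HFD+F+CCl4 cells and 16 WD+F+CCl4 cells, at 0 and 0 CPM, then 36.4, 55.0 and 91.2 CPM and 29.3, 139 and 0 CPM, so that WD+F+CCl4 mouse 3 with its 12 cells held none. It was too sparse for the test across genes. Of the 34 cells with Tcrg-V6, 22 also held Trdv4.

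Tcrg-V1, whose chain is common in type 1 cells, was found in 29 control cells, 2 HFD+F+CCl4 cells and 3 WD+F+CCl4 cells. Its level was 52.9 and 59.6 CPM in the control mice, 0, 18.3 and 0 CPM in the HFD+F+CCl4 mice and 11.7, 9.96 and 0 CPM among the WD+F+CCl4 mice, so all NASH mice were below both control mice. It was not tested. Tcrg-V4 was found in 21 cells, of which 11 were control cells, and Trgv2 in 142 cells of all groups. The constant gene Tcrg-C1 was at 283 and 298 CPM in the control mice, 419, 578 and 1074 CPM in the HFD+F+CCl4 mice and 638, 807 and 916 CPM among the WD+F+CCl4 mice, and these groups did not overlap (log2 fold change 1.36 ± 0.39 SE, edgeR adjusted p = 0.0625). Tcrg-C4 had a log2 fold change of -0.87 ± 0.33 SE (edgeR adjusted p = 0.183). Of the 17 receptor genes of this locus group found in the matrix, 5 passed the filter on low counts, 1 rose (against 2.13% of all genes tested), none fell, and their median log2 fold change was 0.49.

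**Figure D2:**
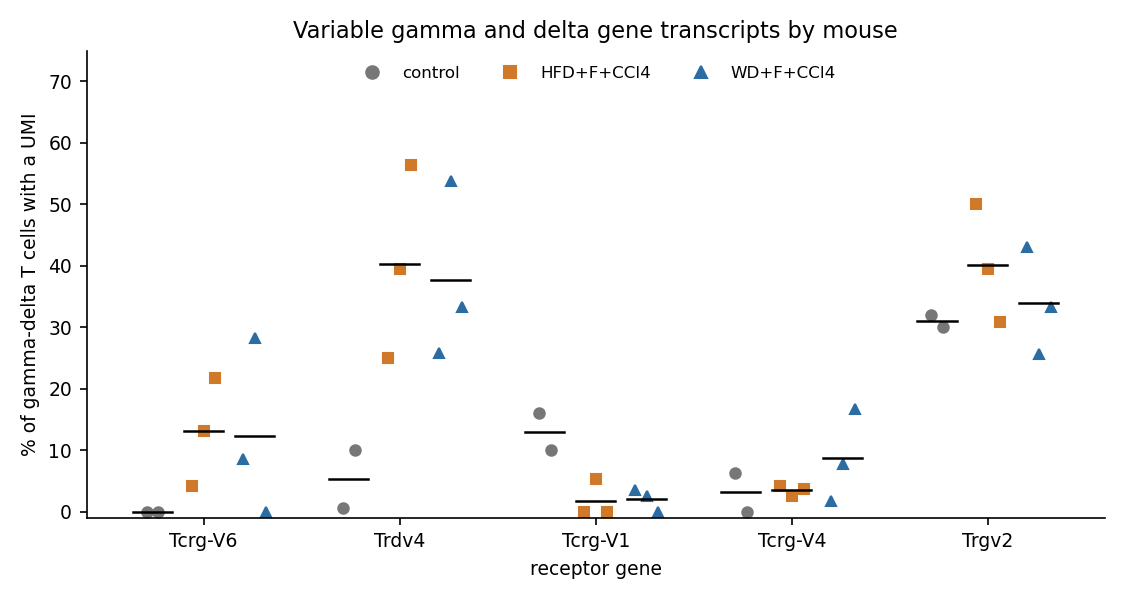
Percent of gamma-delta T cells of each mouse with at least 1 UMI of 5 variable gamma and delta genes, with 1 point for each mouse and bars at the group means. Trdv4 points of all NASH mice lie above those of both control mice, and Tcrg-V1 points lie below them.

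Cells were next read for the programs. A core list of each program was used, 8 genes with Il17a, Il17f, Il23r, Cd163l1, Il1r1 and Sox13 among them for type 17 and Tbx21, Eomes, Ifng, Xcl1, Klrd1, Gzmb and Prf1 for type 1. Each cell was thinned to 800 UMIs, which left out 2 cells of control mouse 1, and counted if it kept 1 UMI of the list. Type 17 transcripts were seen in 4.05% (7 of 173) and 20% (2 of 10) of cells in the control mice. They were seen in 50%, 60.5% and 74.5% in the HFD+F+CCl4 mice and in 48.3%, 64.1% and 58.3% among the WD+F+CCl4 mice. All 6 NASH mice were above both control mice, with 59.3% ± 9.65 (SD, n = 6) against 12.0% ± 11.3 (SD, n = 2). The exact two-sided permutation test gave p = 0.0357, the smallest that 2 against 6 mice allow. The adjusted permutation p was 0.0714 over 4 measures. The core lists were chosen with earlier results of these data known. These p-values and those of the type 1 list below are therefore descriptions. Without thinning the shares were 6.86% and 30% in the control mice and 58.3% to 89.1% in the NASH mice. In B cells, which should lack these genes, 0% to 1.30% of thinned cells were counted in every mouse, and Trdc-zero T cells had 6.16% ± 3.29 (SD, n = 6) in NASH mice and 2.62% ± 2.06 (SD, n = 2) in control mice.

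Type 1 transcripts went the other way. They were seen in 63.6% and 30% of cells in the control mice, in 25%, 15.8% and 7.27% in the HFD+F+CCl4 mice and in 27.6%, 10.3% and 25% among the WD+F+CCl4 mice, with 6 of 6 NASH mice below both control mice. The means were 18.5% ± 8.58 (SD, n = 6) against 46.8% ± 23.8 (SD, n = 2), again with the smallest exact permutation p of 0.0357 and an adjusted p of 0.0714. Without thinning they were 83.4% and 50% against 25.6% to 41.7%. Trdc-zero T cells had 27.4% ± 4.76 (SD, n = 6) in NASH mice and 39.6% ± 7.8 (SD, n = 2) in control mice. Of the 6 NASH mice, 5 lay below both control mice there (exact permutation p = 0.0714). The B cell background behaved alike in direction. B cells were counted at 4.88% and 24.0% in the control mice and at 1.72% to 2.70% in the NASH mice (exact permutation p = 0.0357), so the 30% of control mouse 2 was close to its own background, and the part of free RNA in the type 1 difference was not tested. Without control mouse 1 the type 1 difference was -11.5 percentage points in place of -28.3, and the type 17 difference 39.3 in place of 47.3. Cells with both cores made up 0% to 4.17% and cells with neither 16.7% to 50% of the thinned cells of a mouse.

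**Figure D3:**
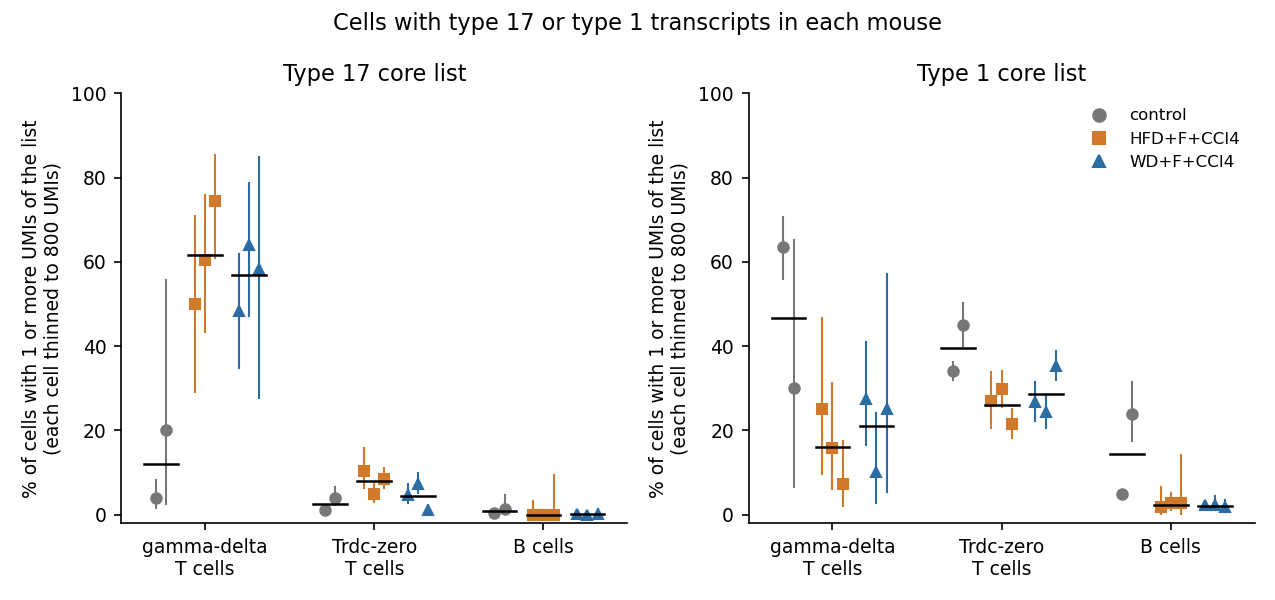
Percent of cells with 1 or more UMIs of the type 17 core list (left) and the type 1 core list (right) after thinning to 800 UMIs, for gamma-delta T cells, Trdc-zero T cells and B cells of each mouse, with exact 95% binomial intervals and bars at group means. Gamma-delta T cells of NASH mice lie at 48.3% to 74.5% on the left, and B cells of control mouse 2 reach 24.0% on the right.

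Chains and programs were counted together in the cells, here without thinning and as a description. Of the 106 cells with Tcrg-V6 or Trdv4, 102 held a type 17 core UMI, 93 held Cd163l1 and 16 held a type 1 core UMI. Of the 34 cells with Tcrg-V1, 3 held a type 17 core UMI and 29 a type 1 core UMI. Most of them, 29, were control cells, of which 25 held a type 1 core UMI. Among the 183 control cells without Tcrg-V6 or Trdv4, 150 did too. The Tcrg-V1 count therefore cannot be told apart from the group. The 21 cells with Tcrg-V4 were split, with 9 and 13. Over all cells, 149 held type 17 core UMIs only, 193 type 1 core UMIs only, 30 both and 39 neither. Tcrg-V6 and Trdv4 cells came nearly all from NASH mice. Of the cells with either chain, 58 of 59 in HFD+F+CCl4 mice and 43 of 45 in WD+F+CCl4 mice held a type 17 core UMI. Of the cells with neither, 14 of 183 in control mice, 33 of 58 in HFD+F+CCl4 mice and 30 of 64 in WD+F+CCl4 mice did. In these counts the share was higher with either chain within each model, and higher in NASH than in control mice among cells without them.

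Across genes, 2587 passed the filter on low counts in gamma-delta T cells, and 106 differed between NASH and control mice (edgeR quasi-likelihood test on UMIs summed per mouse, adjusted p under 0.05). Higher genes were 2.13% of those tested (55 genes) and lower genes 1.97% (51 genes), and the median log2 fold change of all tested genes was 0.03. The call count rested on control mouse 1, and 5 genes were called without it. It was 162 without HFD+F+CCl4 mouse 1 and 70 without HFD+F+CCl4 mouse 2. DESeq2 called 31 higher and 10 lower genes.

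The type 17 list of 24 genes had 20 that passed the filter, of which 13 rose, against 2.13% of all genes, and none fell. Their median log2 fold change was 2.94. DESeq2 called 11 of them and the fit with the replicate block 9. The filter asked for its count limit in any 2 mice. Genes near 0 in both control mice, Il23r among them, therefore passed through NASH mice alone. A gene high only in control mouse 1 could not pass. The count of 13 is thus a description and no test of the list. Among the 13 were the transcription factor Maf, the receptors Il23r, Il1r1, Il7r, Ltb4r1, Igf1r, Ramp1 and the scavenger receptor Cd163l1 (SCART1), the B lymphoid kinase Blk, the membrane proteins Tmem176a and Tmem176b, and the protease inhibitor Serpinb1a. Without control mouse 1 the call of Il7r remained, and the other 12 missed the threshold against the single shallow control library left. Their log2 fold changes there were 1.11 (Cd163l1) to 8.01 (Ramp1), and 5 of the 12, Ramp1 among them, had 0 UMIs in control mouse 2, so that their fitted values depend on the prior count and are no bounds. Values were 1.40 for Maf, 1.77 for Ltb4r1, 1.92 for Serpinb1a and 2.56 for Tmem176a, against 1.79, 5.79, 3.63 and 3.77 with all mice, and for Il7r 4.45 against 1.56.

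Il23r, the receptor chain specific to IL-23, was at 0 CPM in both control mice, at 91.0, 64.2 and 97.7 CPM in the HFD+F+CCl4 mice and at 52.6, 119.5 and 0 CPM among the WD+F+CCl4 mice. With 48 UMIs against 0 it was at least 14.7-fold higher, taking 3 UMIs over the control group as the limit that a count of 0 allows (edgeR adjusted p = 0.0188). WD+F+CCl4 mouse 3 held no Il23r UMI. That limit came almost wholly from control mouse 1. In control mouse 2 alone a count of 0 allows 179 CPM, above the 77.7 CPM of all NASH UMIs of Il23r together, so no bound remained without control mouse 1 and the call was lost (edgeR adjusted p = 0.547).

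Cd163l1 was at 16.4 and 417 CPM in the control mice, 746, 569 and 983 CPM in the HFD+F+CCl4 mice and 474, 578 and 881 CPM among the WD+F+CCl4 mice. The groups did not overlap, but control mouse 2, with 7 UMIs in 3 cells, came close to the lowest NASH mouse (log2 fold change 3.58 ± 0.87 SE, edgeR adjusted p = 0.0263), and without control mouse 1 the log2 fold change was 1.11. Its call was also lost, at log2 fold changes of 3.57, 3.37 and 3.43, without HFD+F+CCl4 mouse 2, HFD+F+CCl4 mouse 3 or WD+F+CCl4 mouse 3 (edgeR adjusted p = 0.0546, 0.0607 and 0.0632), and with DESeq2 (log2 fold change 2.03, DESeq2 adjusted p = 0.635). Blk was at 12.8 and 59.6 CPM in the control mice, 328, 358 and 625 CPM in the HFD+F+CCl4 mice and 322, 339 and 352 CPM among the WD+F+CCl4 mice. The groups did not overlap (log2 fold change 4.57 ± 0.56 SE, edgeR adjusted p = 0.000147). The Blk value of control mouse 2 was 1 UMI in 1 cell, with an exact Poisson 95% interval of 1.51 to 332 CPM that reached the lowest NASH mice, and without control mouse 1 the log2 fold change was 3.06. Il1r1, the IL-1 receptor, went from 1.82 and 0 CPM to between 23.4 and 137 CPM (52 UMIs against 1, edgeR adjusted p = 0.0156, and 0.0863 without HFD+F+CCl4 mouse 3). Tmem176b went from 78.4 and 238 CPM to between 473 and 1061 CPM (log2 fold change 2.94 ± 0.48 SE, edgeR adjusted p = 0.00145), and without control mouse 1 the log2 fold change was 2.11.

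The cytokines themselves were scarcely seen. Il17a was found in 7 HFD+F+CCl4 cells and 3 WD+F+CCl4 cells and in no control cell, and Il17f in 1 cell of each model. A count of 0 in the 185 control cells, pooled over mice, allows up to 1.62% of cells with a captured UMI. Of these cells 175 came from control mouse 1, so this is nearly a limit for that mouse alone. The 10 cells of control mouse 2 hardly limit the share there. A count of 0 does not limit the share of cells that express the gene, and the cytokine genes were not compared. Of 18 other secreted cytokines, 3 passed the filter and 1 rose (against 2.13% of all genes), Ltb (lymphotoxin beta), from 365 and 417 CPM to between 780 and 1302 CPM (log2 fold change 1.38 ± 0.33 SE, edgeR adjusted p = 0.0234), and without control mouse 1 the log2 fold change was 1.62 with the call lost. It was also lost without control mouse 2 or HFD+F+CCl4 mouse 3, at log2 fold changes of 1.34 and 1.26.

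RefSeq promoters (build GRCm38.p6) were available for 18 of the 24 type 17 genes. The letters AGGTCA, a core bound by many nuclear receptors, or their reverse complement TGACCT, were found in the 250 bases before the start in 6 of their 27 promoters (22.2%), against 14.0% of 32851 promoters of all genes. This motif was kept after the counts of 4 motifs were seen, and GGGTCA, TGACGTCA and TGAGTCA were found in 2, 0 and 0 of the 27 promoters, against 11.7%, 1.55% and 4.46% of all. Of the 13 genes that rose, 9 had a promoter entry, and 2 of their 13 promoters (15.4%) held the motif, a share near that of all promoters. They were those of Il23r at chr6:67491856-67492105 (minus strand) and Igf1r at chr7:67952007-67952256 (plus strand). Their sequences are shown 5′ to 3′ because they are the matches among the genes that rose, with the motif in capitals.
Il23r: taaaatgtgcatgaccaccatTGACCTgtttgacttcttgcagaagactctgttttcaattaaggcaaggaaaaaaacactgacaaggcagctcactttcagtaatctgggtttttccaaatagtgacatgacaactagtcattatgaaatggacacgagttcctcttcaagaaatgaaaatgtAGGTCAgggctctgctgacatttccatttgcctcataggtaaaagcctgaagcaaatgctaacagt
Igf1r: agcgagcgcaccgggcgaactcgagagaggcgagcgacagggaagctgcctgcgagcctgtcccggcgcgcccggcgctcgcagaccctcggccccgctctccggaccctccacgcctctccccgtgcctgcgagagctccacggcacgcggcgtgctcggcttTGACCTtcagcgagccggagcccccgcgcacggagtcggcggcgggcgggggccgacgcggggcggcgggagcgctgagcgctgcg
A match says only that these letters are present. The Il23r window holds 1 match on each strand and the Igf1r window 1 on the opposite strand.

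The type 1 and cytotoxic list of 22 genes had 16 that passed the filter, of which 5 fell, against 1.97% of all genes, and none rose. The median log2 fold change was -1.41. The summed level of the list, led by Ccl5, overlapped between the groups. It was 11656 and 6791 CPM in the control mice, 5094, 5631 and 1967 CPM in the HFD+F+CCl4 mice and 5569, 2888 and 14198 CPM among the WD+F+CCl4 mice. The type 1 core list was at 1769 and 1072 CPM in the control mice. HFD+F+CCl4 mouse 2, at 2018 CPM, lay above both, and the other NASH mice were at 202 to 634 CPM. The genes that fell were Gzma (granzyme A), Ctsw (cathepsin W), Klrd1 (CD94, an NK receptor chain), Il2rb (the IL-2 and IL-15 receptor beta chain) and Hopx. Gzma was at 465 and 298 CPM in the control mice, 0, 18.3 and 0 CPM in the HFD+F+CCl4 mice and 275, 0 and 0 CPM among the WD+F+CCl4 mice. All NASH mice were below both control mice, and the value of WD+F+CCl4 mouse 1 came from 47 UMIs in 1 of its 58 cells (log2 fold change -3.78 ± 0.76 SE, edgeR adjusted p = 0.00783). Klrd1 was at 604 and 238 CPM in the control mice, 127, 165 and 52.1 CPM in the HFD+F+CCl4 mice and 152, 199 and 423 CPM among the WD+F+CCl4 mice. Here WD+F+CCl4 mouse 3 was above control mouse 2, so the groups overlapped (log2 fold change -1.69 ± 0.41 SE, edgeR adjusted p = 0.0263). Xcl1, a chemokine of type 1 cells, was at 627 and 238 CPM in the control mice and at 218, 1752, 6.51, 240, 169 and 0 CPM in the NASH mice. HFD+F+CCl4 mouse 2 was thus the highest of all, and the gene did not pass the test (edgeR adjusted p = 0.848). None of the 5 was called with DESeq2 or in the fit with the replicate block, where the list medians were -1.39 and -1.27. The count of 5 was 3 without HFD+F+CCl4 mouse 2 or 3 and 10 without HFD+F+CCl4 mouse 1. Without control mouse 1 none of the 5 was called, the log2 fold changes of Gzma and Klrd1 were -2.83 and -0.23, and that of Il2rb turned to 0.16. Klrd1 also missed the threshold without HFD+F+CCl4 mouse 3 (log2 fold change -1.44, edgeR adjusted p = 0.0712), and Il2rb without any 1 of HFD+F+CCl4 mice 2 and 3 and WD+F+CCl4 mice 2 and 3 (log2 fold changes -1.35 to -1.28).

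Transcripts of other cell types moved in the same libraries, to be read against 2.13% of all tested genes higher and 1.97% lower. Of the NK cell list, whose most abundant gene was Gzma, 2 of 9 genes passed the filter and both fell (Klre1, Gzma), and its summed level was 939 and 536 CPM in the control mice, 127, 119 and 52.1 CPM in the HFD+F+CCl4 mice and 374, 99.6 and 106 CPM among the WD+F+CCl4 mice. Of the hepatocyte list, led by Alb, 12 of 14 passed and 3 fell (Alb, Serpina1c, Mup3; 6 without WD+F+CCl4 mouse 1), with summed levels of 3364 and 3157 CPM, then 1164, 1339 and 247 CPM and 5762, 130 and 458 CPM. Of the macrophage list, led by Cd74, 12 of 14 passed and C1qa and C1qb rose (calls lost without control mouse 1, HFD+F+CCl4 mouse 1 or 2, or WD+F+CCl4 mouse 3), with summed levels of 2782 and 12271 CPM, then 11062, 5466 and 4474 CPM and 2287, 14280 and 4791 CPM. Of the B cell list, led by Igkc, 2 of 8 passed and both fell (Igkc, Ighm), with summed levels of 713 and 2204 CPM in the control mice and 156 to 309 CPM in the NASH mice. Of the granulocyte list, led by S100a9, 2 of 6 passed and none was called, and of the erythroid list, led by Hbb-bs, 3 of 4 passed and none was called, though HFD+F+CCl4 mouse 2 held 19792 CPM of erythroid transcripts. No gene of the endothelial and stromal list passed. In each list every gene was seen in gamma-delta T cells except 1 of the granulocyte list. None of the tested NK cell or hepatocyte genes was called without control mouse 1, where Serpina1c did not pass the filter, Alb had a log2 fold change of -0.29 (edgeR adjusted p = 0.938), and of the B cell list Igkc was still called. Alb also missed the threshold without HFD+F+CCl4 mouse 3 or WD+F+CCl4 mouse 3 (edgeR adjusted p = 0.0712 and 0.0913). The part of these transcripts in the other results was not tested.

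**Figure D4:**
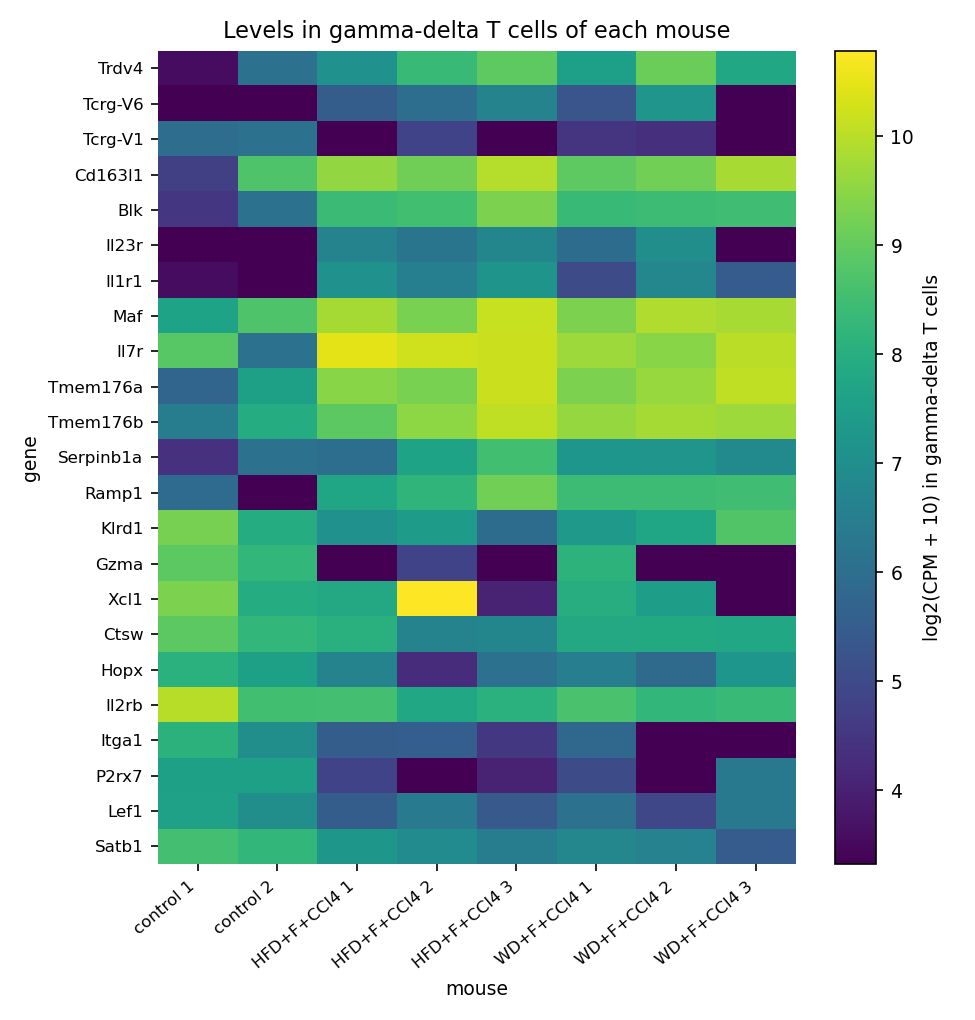
Levels of 23 genes in gamma-delta T cells of each mouse, as log2(CPM + 10), with genes as horizontal bands and mice as columns. The genes were picked from the lists after their values were seen; Il23r, at 0 CPM in both control mice, is at 0 CPM in WD+F+CCl4 mouse 3 too, and Blk is darker in both control mice than in each of the 6 NASH mice.

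Other gene groups had 0 to 3 genes called each, against 2.13% of all tested genes higher and 1.97% lower. Of 20 residency and homing genes 12 passed, 2 rose and 1 fell, with a median log2 fold change of 0.86. S100a6, a calcium-binding protein, was at 1156 and 1787 CPM in the control mice and at 3202 to 5592 CPM in the NASH mice (log2 fold change 1.87 ± 0.29 SE, edgeR adjusted p = 0.00132). Lgals1 (galectin 1) also rose (log2 fold change 1.53 ± 0.31 SE, edgeR adjusted p = 0.00879). Itga1, the integrin chain CD49a of resident type 1 lymphocytes, was at 270 and 119 CPM in the control mice, 36.4, 36.7 and 13.0 CPM in the HFD+F+CCl4 mice and 46.8, 0 and 0 CPM among the WD+F+CCl4 mice, with no overlap (log2 fold change -3.19 ± 0.56 SE, edgeR adjusted p = 0.00247). P2rx7, an ATP receptor, fell from 179 CPM in both control mice to between 0 and 70.5 CPM (log2 fold change -3.84 ± 0.75 SE, edgeR adjusted p = 0.00649). Of 12 naive and circulating genes 8 passed and Lef1 and Satb1 fell. Of 16 interferon-stimulated genes 7 passed and 2 fell, among them Igtp. Of 13 checkpoint genes 3 passed, Tox rose and Cd160 fell. The immediate early list (13 of 16 passed), the heat shock list (8 of 10), glycolysis (10 of 12), oxidative phosphorylation (15 of 15), cell cycle (6 of 12) and lipid handling (3 of 18) had no gene called. None of these genes was called without control mouse 1, where P2rx7 did not pass the filter, and the log2 fold changes of S100a6, Lgals1 and Itga1 were 1.88, 1.45 and -1.79. Lef1 and Tox also missed the threshold without 1 or more of the other mice, with log2 fold changes there of -1.93 to -1.71 and 1.41 to 1.54. Itga1, Satb1, Lef1, Cd160 and Tox were called neither with DESeq2 nor with the replicate block, and Igtp not with DESeq2.

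Each model was also set against the same control mice. In HFD+F+CCl4 mice 1.97% of the 2587 genes were higher (51 genes) and 1.55% lower (40 genes), and in WD+F+CCl4 mice 1.28% were higher (33 genes) and 0.541% lower (14 genes). Of the 20 tested type 17 genes, 13 rose under HFD+F+CCl4 and 10 under WD+F+CCl4, with median log2 fold changes of 3.10 and 2.91. Of the 16 tested type 1 and cytotoxic genes, 5 fell under HFD+F+CCl4 and none passed under WD+F+CCl4, with medians of -1.72 and -1.16. The counts of all calls, 91 and 47, were 2 each without control mouse 1. Without HFD+F+CCl4 mouse 2 or 3 the first was 48 or 39, and without WD+F+CCl4 mouse 3 the second was 26.

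The direct comparison of the models called no gene in either direction (0.0% of 2587 by edgeR), with 69 genes at an unadjusted p under 0.05 and 0 called by DESeq2. The count was 3 without HFD+F+CCl4 mouse 1 and 6 without WD+F+CCl4 mouse 2. Type 17 core cells made up 56.9% ± 8.01 (SD, n = 3) in WD+F+CCl4 mice and 61.7% ± 12.3 (SD, n = 3) in HFD+F+CCl4 mice (exact permutation p = 0.6). Type 1 core cells made up 20.9% ± 9.35 and 16.02% ± 8.87 (SD, n = 3 each, exact permutation p = 0.6). With 3 mice against 3 the smallest p is 0.1, so these tests could not pass 0.05, and a difference between the models was not detectable here.

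Gamma-delta T cells were then compared with the Trdc-zero T cells of the same mice and libraries, to see what else set them apart. With the mouse as a block, 8784 genes were tested, 1.82% were higher (160 genes) and 2.37% lower (208 genes), and the median log2 difference was -0.07. The count of 368 was 245 without HFD+F+CCl4 mouse 3. Receptor genes followed the rule, since Trdv4 and Trdc can sit on 1 transcript. All 8 tested gamma-delta receptor genes were higher. Tcrg-C1 had a median of 608 CPM over the 8 mice against 61.7 CPM and was higher in 8 of 8 (log2 difference 3.14 ± 0.18 SE, edgeR adjusted p = 8.48e-27). Of the 11 alpha-beta genes, 10 were lower. Trac had medians of 78.6 and 589 CPM and was lower in 8 of 8 mice (log2 difference -3.01 ± 0.18 SE, edgeR adjusted p = 1.37e-25).

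Type 17 genes were also higher in gamma-delta T cells, 18 of 23 tested against 1.82% of all genes, and 1 was lower, the costimulator Icos. Their median log2 difference was 1.24. Cd163l1 ranged from 16.4 to 983 CPM in gamma-delta T cells and from 0.885 to 9.98 CPM in Trdc-zero T cells, and the cells of every mouse differed in the same direction (log2 difference 6.88 ± 0.26 SE, edgeR adjusted p = 2.23e-40). Blk ranged from 12.8 to 625 CPM against 4.51 to 41.1 CPM, higher in 8 of 8 mice (log2 difference 3.92 ± 0.28 SE, edgeR adjusted p = 5.31e-21). Sox13, a transcription factor of the type 17 gamma-delta lineage, ranged from 3.65 to 106 CPM against 0 to 8.96 CPM, higher in 8 of 8 mice (log2 difference 4.54 ± 0.58 SE, edgeR adjusted p = 1.97e-09). Outside the lists, Abi3bp, an extracellular matrix protein, had medians of 161 and 9.92 CPM and was higher in 8 of 8 mice (log2 difference 3.67 ± 0.31 SE, edgeR adjusted p = 2.42e-17).

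Of 12 tested checkpoint genes 4 were lower in gamma-delta T cells, Ctla4, Lag3, Entpd1 and Tnfrsf4, against 2.37% of all genes, and none was higher. The call of Lag3 was lost without HFD+F+CCl4 mouse 3 (log2 difference -1.04, edgeR adjusted p = 0.178) and with DESeq2. Among the lower alpha-beta genes, Cd4 had medians of 2.93 and 137 CPM (log2 difference -3.86 ± 0.32 SE), the regulatory factor Foxp3 0 and 76.6 CPM (-3.43 ± 0.38 SE), and the checkpoint gene Ctla4 had 0 and 59.8 CPM (-3.29 ± 0.42 SE), each lower in 8 of 8 mice. Penk, the enkephalin precursor, had 0 UMIs against 615 and was at least 16.7-fold lower. Of the 22 type 1 and cytotoxic genes none was higher and 5 were lower (10 without control mouse 1, 2 with DESeq2), among them Gzmk (2 UMIs against 990), Il2rb and Cd27, while Xcl1, Klrd1 and Gzmb gave log2 differences of 0.36 ± 0.28, 0.34 ± 0.21 and 0.16 ± 0.27 SE and were not called. Of 12 cell cycle genes 9 were lower (6 to 9 leaving out 1 mouse), with a median log2 difference of -0.93. Mki67, a marker of cycling cells, had medians of 51.2 and 123 CPM and was lower in 7 of 8 mice (log2 difference -1.20 ± 0.23 SE, edgeR adjusted p = 0.000107). S100a6, Crip1, Lgals1 and S100a4 were among 5 of 19 residency genes that were higher (2 were lower), and Klf2 and S1pr1, the exit receptor for circulation, were higher of 12 naive and circulating genes, while Satb1 was lower. The call of Satb1 was lost without any 1 of HFD+F+CCl4 mice 1 and 3 and WD+F+CCl4 mice 1 and 2, at log2 differences of -0.65 to -0.60, and that of Klf2 without HFD+F+CCl4 mouse 1, at 0.54. Of the granulocyte list 2 of 5 tested genes were lower in gamma-delta T cells, and of the erythroid list 4 of 4, against 2.37% of all genes. The erythroid count was 1 without control mouse 1, 2 without HFD+F+CCl4 mouse 3 and 3 without WD+F+CCl4 mouse 1. The hepatocyte and macrophage lists had no call. The part of the transcripts of these 4 lists in the other differences was not tested. In cells with no beta chain UMI, where only control mouse 1 and WD+F+CCl4 mouse 2 had 10 cells, the log2 differences of Crip1, Top2a and Hmgb2 turned to -0.21, 0.88 and 0.50.

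**Figure D5:**
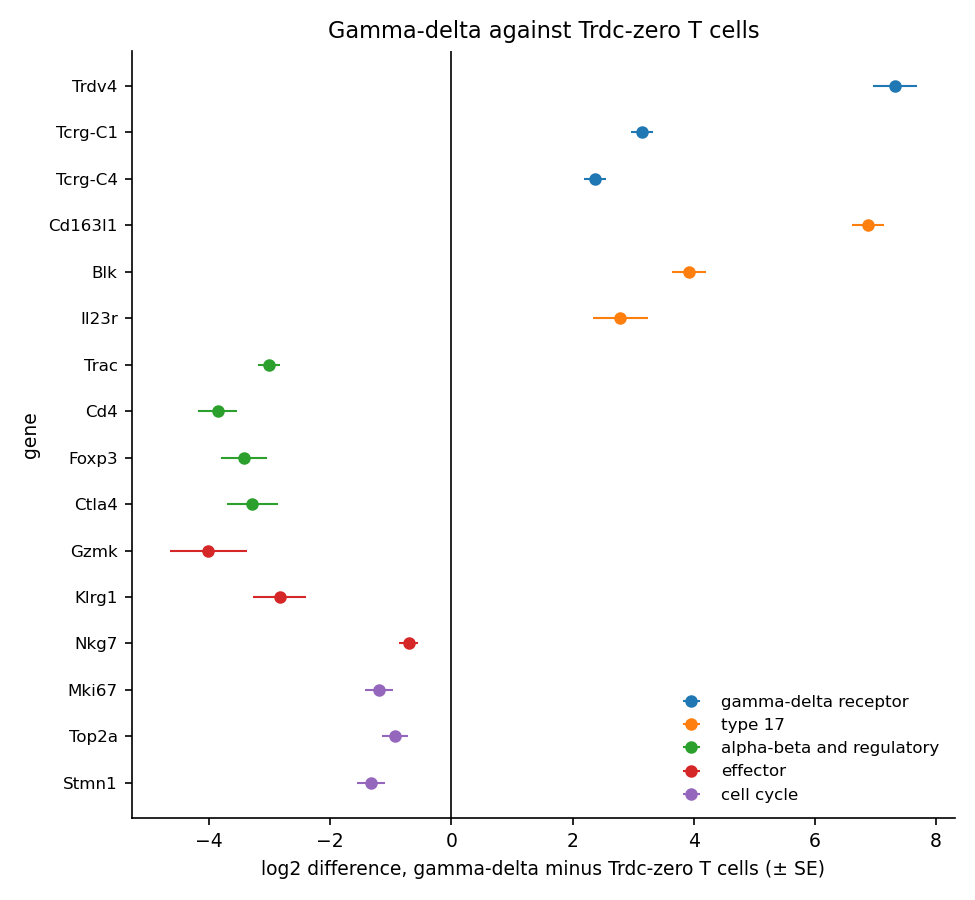
Log2 difference in level between gamma-delta and Trdc-zero T cells of the same mice (points, edgeR with the mouse as a block) with standard errors as horizontal lines, for 16 genes picked from the lists after their values were seen. Trdv4 and Cd163l1 lie furthest to the right at 7.33 and 6.88, and Cd4 and Gzmk furthest to the left at -3.86 and -4.02.

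Last, the change with NASH was compared between the T cell classes, as the difference of the log2 fold changes in 1 model. Of 8784 genes, 0.421% had a higher change in gamma-delta T cells (37 genes) and 0.558% a lower one (49 genes). Of the 55 genes that rose with NASH in gamma-delta T cells 13 were also called here, and of the 51 that fell 15 were. The count of 86 was 11 without control mouse 1, and without HFD+F+CCl4 mouse 3 it was 50.

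Of 23 type 17 genes 8 had a higher change in gamma-delta T cells, Blk, Cd163l1, Maf, Ccr2, Il1r1, Zbtb16, Serpinb1a and Ramp1, against 0.421% of all genes, and the median difference was 1.72. The count of 8 was 1, Blk, without control mouse 1 or with DESeq2 and 2 without HFD+F+CCl4 mouse 3, and it was 5 without control mouse 2, WD+F+CCl4 mouse 1 or WD+F+CCl4 mouse 2. Blk was at 9.92 and 41.1 CPM in Trdc-zero T cells of the control mice and at 4.51 to 22.7 CPM in those of the NASH mice, while it rose in gamma-delta T cells (difference of log2 fold changes 4.53 ± 0.57 SE, edgeR adjusted p = 3.99e-12), and the difference was 4.86 without control mouse 1, still called. Cd163l1 was near 0 in Trdc-zero T cells of all mice (difference 2.97 ± 0.76 SE, edgeR adjusted p = 0.0164), and its call was lost without control mouse 1 or HFD+F+CCl4 mouse 3, where the difference was 2.30 and 2.81. Cxcr6, a homing receptor of liver T cells, was at 671 and 417 CPM in gamma-delta T cells of control mice and at 588 to 1107 CPM in those of NASH mice, and in Trdc-zero T cells at 654 and 412 CPM against 234 to 377 CPM (difference 1.35 ± 0.32 SE, edgeR adjusted p = 0.00586). Without either control mouse or HFD+F+CCl4 mouse 3 the call of Cxcr6 was lost, at differences of 1.81, 1.17 and 1.27.

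Of 22 type 1 and cytotoxic genes 8 had a lower change in gamma-delta T cells, against 0.558% of all genes, and the median difference was -1.26. The count was 1, Ccl5, without control mouse 1, where the median difference was 0.06, and with DESeq2, where it was -1.14. The 8 were Eomes, Gzma, Gzmb, Nkg7, Ccl3, Ccl4, Ccl5 and Klrd1. Ccl5, a chemokine of effector T cells, was at 5065 and 3217 CPM in gamma-delta T cells of control mice and at 860 to 10605 CPM in those of NASH mice, and in Trdc-zero T cells at 1368 and 1634 CPM against 2204 to 14466 CPM. It was thus higher in Trdc-zero T cells of every NASH mouse while the gamma-delta values overlapped (difference -2.08 ± 0.22 SE, edgeR adjusted p = 2.96e-18), and without control mouse 1 it was -1.22, still called. For Gzma and Klrd1 the difference of -2.72 ± 0.41 SE and -1.40 ± 0.37 SE turned to 0.04 and 0.47 without control mouse 1. Hepatocyte transcripts (8 of 14 genes with a higher change) and granulocyte transcripts (3 of 5 with a lower one) also differed between the classes, and so did NK cell transcripts (3 of 6 with a lower one, Klre1, Klra9 and Gzma, median difference -2.55). Their part in these results was not tested. None of the NK cell genes was called without control mouse 1, where Klra9 turned to 3.80, and Klre1 and Gzma were not called with DESeq2. No hepatocyte gene was called without WD+F+CCl4 mouse 1, where the list's median difference was 0.19 in place of 1.59, and 3 were without control mouse 1 and none with DESeq2. A single gamma-delta T cell of WD+F+CCl4 mouse 1 held 940 of its 985 UMIs of the hepatocyte list. No granulocyte gene was called without control mouse 1, where the differences of S100a9 and Retnlg turned to 1.01 and 2.71. With DESeq2, S100a8 and S100a9 were not called.

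NASH against control was not tested within Trdc-zero T cells, and the levels of 4 genes called in gamma-delta T cells are given there for all mice. In Trdc-zero T cells S100a6 was at 649 and 768 CPM in the control mice and at 1626 to 2315 CPM in the NASH mice, and Ltb at 306 and 240 CPM against 589 to 900 CPM. Igtp was at 246 and 180 CPM against 46.0 to 90.7 CPM, and Cd160 at 150 and 171 CPM against 27.4 to 67.3 CPM. In each of the 4 genes the control and NASH values of Trdc-zero T cells did not overlap. None of them was called for a difference between the classes, which does not show that they changed alike, and in gamma-delta T cells the calls of all 4 were lost without control mouse 1, with log2 fold changes of -0.67 for Cd160 and -2.74 for Igtp. mt-Nd3 had 1 UMI in gamma-delta T cells of the control mice and 549 in those of the NASH mice. It was also higher over all kept cells of the NASH libraries, where Gm28438 was lower.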

How the data were processed

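Livers were dissociated by the authors after heart perfusion, and cells were profiled with droplet-based 3′ single-cell RNA sequencing. The authors deposited 1 matrix of raw UMI counts for all 8 mice (55450 genes, 88581 barcodes), made with Cell Ranger (4.0.0 per the file header) on mouse build GRCm38 after bcl2fastq 2.20. Barcodes were assigned to mice by the suffix given in the labels, and 0 were left unassigned. Kept cells had more than 500 genes and under 25% mitochondrial UMIs, the study's stated limits. Of the symbols, 108 were shared by several genes. Whether mice were litter mates or shared a day was not given in the sources used here, and p-values measure the spread between these mice.

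UMI counts were summed per mouse and class (at least 10 cells) and tested with edgeR 4.0.16 (TMM, filterByExpr with min.count 10, glmQLFit and glmQLFTest, Benjamini-Hochberg over all genes tested, called at adjusted p under 0.05) in R 4.3.3, with limma 3.58.1. DESeq2 1.42.0 was an alternative. One fit over all 8 mice served the group contrasts. Fits between classes had the mouse as a block. Shares were compared by exact two-sided permutation tests over mice (SciPy 1.17.1), and their exact binomial (Clopper-Pearson) intervals of 95% cover counting error only. Cells without CD3 UMIs served as background: B cells (2 or more Cd79a UMIs), NK cells (Klrb1c and Ncr1 UMIs) and cells with 2 or more Csf1r UMIs. Alternatives were another Trdc limit, thinning, gene and mitochondrial limits, leaving out cells above the 95th percentile of UMIs, cells without beta chain UMIs, other normalizations and count filters, a replicate block and leaving out each mouse. Fits and permutation tests were tested on simulated data. Python 3.11.15, numpy 2.4.6, pandas 2.3.3 and matplotlib 3.10.9 were used.

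The members and gene lists were chosen with earlier results of these data known. Counts over a list and the p-values of the core shares are therefore descriptions. Named genes were the 8 called genes with the largest rise and the 8 with the largest fall at a mean log2 CPM of at least 5, and up to 4 genes per list, called genes first. Further list members named in the text were chosen after their values were seen. Same-numbered mice of different groups were not paired by the labels. Some genes of the lists are not reported here by name.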

Additional observations from a re-analysis of the deposited data

Results flagged for a closer look

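In gamma-delta T cells of the 6 NASH mice, 5 values of 20 genes searched lay apart from the other mice of the group, and chance alone sets about 1 in 20 such groups apart. They were C1qb at 655 CPM in HFD+F+CCl4 mouse 1, P2rx7 at 70.5 CPM in WD+F+CCl4 mouse 3, and 3 values of WD+F+CCl4 mouse 1, Gzma at 275 CPM, Serpina3k at 105 CPM and Mup3 at 111 CPM. C1qb belongs to the macrophage list and Mup3 to the hepatocyte list, and P2rx7 of WD+F+CCl4 mouse 3 rests on its 12 cells. In WD+F+CCl4 mouse 1 single cells carried these values. The 47 Gzma UMIs all came from 1 of its 58 cells, and another cell held all 19 Mup3 UMIs and 17 of 18 Serpina3k UMIs, with 7890 UMIs in total against a median of 2565.

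Among called genes with a mean log2 CPM of at least 5, the change with NASH differed between gamma-delta and Trdc-zero T cells most for 8 genes in each direction, by the test of the difference itself (edgeR, adjusted p under 0.05 for each). The differences of log2 fold changes were 4.53 for Blk, 3.69 for Orm1, 3.63 for Ly6g5b, 3.52 for Cd79b, 3.00 for Mtss1, 2.97 for Cd163l1, 2.88 for Naaa and 2.75 for Zbtb16. They were -6.38 for Retnlg, -6.30 for Camp, -4.59 for Trat1, -4.36 for Lilr4b, -4.33 for Entpd1, -4.01 for S100a8, -3.92 for Ccl4 and -3.55 for Izumo1r.

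Some of these rest on few UMIs or 1 mouse. In gamma-delta T cells of NASH mice Camp, Entpd1 and Trat1 had 1 UMI each and Retnlg and Izumo1r 2 each, so their fitted differences depend on the prior count and are no bounds. Orm1, an acute phase protein of hepatocytes, was at 603 CPM in gamma-delta T cells of WD+F+CCl4 mouse 1, where 101 of 103 UMIs lay in 1 cell, and at 0 to 18.3 CPM in the other NASH mice. Without WD+F+CCl4 mouse 1 the difference for Orm1 was 0.05, and its call was lost. S100a8 was at 1065 CPM in the same mouse, with 173 of 182 UMIs in 1 cell, and at 0 to 58.6 CPM in the others. Cd79b was at 29.2 and 0 CPM in gamma-delta T cells of the control mice and at 39.8 to 106 CPM in those of all NASH mice, while in Trdc-zero T cells it was at 41.3 and 215 CPM against 4.48 to 19.6 CPM. Ly6g5b was at 9.12 and 0 CPM in gamma-delta T cells of the control mice and at 110 to 282 CPM in those of the NASH mice. Without control mouse 1, Blk and Cd79b of these 16 genes were still called, and most differences moved widely. They were then 4.86 for Blk, 12.4 for Cd79b, 9.69 for Orm1, 8.60 for Ly6g5b, 9.64 for Mtss1, 2.30 for Cd163l1, 2.25 for Naaa and 1.24 for Zbtb16. They were -7.62 for Camp, -2.02 for S100a8, -0.56 for Ccl4 and -4.88 for Izumo1r, and Retnlg, Trat1, Lilr4b and Entpd1 turned. The left control mouse held 0 Cd79b UMIs in gamma-delta T cells, so its fitted difference of 12.4 is no bound. Leaving out other mice also lost calls. Without HFD+F+CCl4 mouse 3 those of Cd163l1, Naaa, Zbtb16, Camp, Entpd1 and Izumo1r were lost, at differences of 2.81, 2.83, 2.37, -8.73, -4.04 and -3.14. Camp was not called without control mouse 2, nor Naaa without WD+F+CCl4 mouse 2 (-6.01 and 2.34). Entpd1 was not called without HFD+F+CCl4 mouse 2 or WD+F+CCl4 mouse 2, nor Izumo1r without WD+F+CCl4 mouse 1 or 2.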

How the results depend on the processing

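Depth set the limits here. Control mouse 2 gave 16788 UMIs from 10 gamma-delta T cells, so without control mouse 1 the control group was 1 shallow library, assumed to vary like the other groups. Of 111 values under alternatives other than leaving out 1 mouse, 87 stayed on their side of the threshold or within 1.5 times. These alternatives include the fit of cells without a beta chain UMI, which held only control mouse 1 and WD+F+CCl4 mouse 2. The other 24 values are given here with the values that reversed. The causes were not tested, except where fewer cells or genes entered.

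Genes called for NASH against control numbered 106 (55 higher and 51 lower), and 41 with DESeq2 (31 and 10), 166 with min.count 5, 216 without a filter and 42 with the replicate block (31 and 11). For HFD+F+CCl4 against control they numbered 91, and 35 with DESeq2, 150 without a filter and 28 with the block. For WD+F+CCl4 against control they numbered 47, and 24 with DESeq2, 83 with min.count 5, 116 without a filter and 28 with the block. For WD+F+CCl4 against HFD+F+CCl4 they numbered 0, and 4 with min.count 5 and 25 without a filter. For gamma-delta against Trdc-zero T cells they numbered 368, and 235 with DESeq2, 13 in cells without a beta chain UMI and 73 with no replicate block. For the difference of the NASH effect they numbered 86, and 14 with DESeq2. Leaving out 1 mouse gave 5 to 162, 2 to 117, 2 to 68, 0 to 6, 245 to 517 and 11 to 95 for these comparisons in order, with the lowest counts for all contrasts with control mice and for the difference without control mouse 1.

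After thinning, the limits on Trdc and CD3 UMIs for the shares were 1 each. The difference in share of kept cells, NASH minus control, was -0.583 percentage points, and -1.27 to 0.108 leaving out 1 mouse. It was -1.44 after thinning and -1.14 with more than 1000 genes (exact permutation p = 0.0357 for both). WD+F+CCl4 minus HFD+F+CCl4 was -0.0415, 0.0194 without a beta chain UMI and -0.120 to 0.0710 leaving out 1 mouse, with 0.0323 without HFD+F+CCl4 mouse 3. Among CD3 cells, NASH minus control was 2.10, -0.0532 after thinning and 0.529 to 3.68 leaving out 1 mouse, and WD+F+CCl4 minus HFD+F+CCl4 was -2.98 to 0.416 leaving out 1 mouse. The type 17 difference, NASH minus control, was 39.3 to 55.3 leaving out 1 mouse (exact permutation p = 0.143 without either control mouse, the smallest that 1 against 6 allows), and WD+F+CCl4 minus HFD+F+CCl4 was -10.6 to 1.64. The type 1 difference, NASH minus control, was -26.5 at 2 UMIs without thinning (exact permutation p = 0.0714) and -45.1 to -11.5 leaving out 1 mouse, and WD+F+CCl4 minus HFD+F+CCl4 was 4.93, -0.327 at 1 UMI without thinning, -0.556 without a beta chain UMI and 0.553 to 10.3 leaving out 1 mouse.

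Genes that reversed did so without control mouse 1, the highest value in each range when 1 mouse was left out. For Il2rb with NASH the log2 fold change was -1.79 to 0.164, and the differences between the classes were -7.01 to 2.71 for Retnlg, -8.44 to 2.23 for Trat1, -5.14 to 5.15 for Lilr4b, -8.15 to 2.07 for Entpd1, -1.94 to 0.474 for Klrd1, -7.02 to 0.0385 for Gzma, -8.86 to 3.80 for Klra9 and -4.59 to 1.01 for S100a9. Between gamma-delta and Trdc-zero T cells without a beta chain UMI, Nkg7 was at 0.161, Crip1 at -0.211, Igtp at 0.113, Hmgb2 at 0.497 and Top2a at 0.880, and with no replicate block Hbb-bt was at 0.290. Of the genes named as called, 4 of 36 for NASH against control (Igkc, mt-Nd3, P2rx7 and Serpina1c), 12 of 56 between the classes and 3 of 38 for the difference (Blk, Cd79b and Ccl5) were called under every alternative in which they were tested. Igkc and mt-Nd3 also differed between the control and NASH libraries over all kept cells. With cells without a beta chain UMI the group contrasts and the difference could not be fitted, since only 2 mice had 10 or more. The replicate numbers did not pair the mice: mice of the models with the same number correlated at -0.112, -0.0125 and -0.105 in their deviations from the group means, so the block took out only a shared number.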

Other observations

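Cd79b, a chain of the B cell receptor complex, was higher in gamma-delta T cells than in Trdc-zero T cells over all mice (log2 difference 1.16 ± 0.36 SE, edgeR adjusted p = 0.0476). The call of Cd79b was lost in 9 of 16 alternatives, among them leaving out any 1 of the 6 NASH mice (log2 differences 0.799 to 1.13, edgeR adjusted p = 0.0661 to 0.34), leaving out the top 5% of UMIs, and DESeq2. Over all mice Ighm and Igkc were lower (log2 differences -1.16 ± 0.21 and -0.996 ± 0.20 SE). The rule required Cd79a, its partner chain, to be at 0 in both classes.

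Tns4, an adaptor protein of cell adhesions, had 0 UMIs in gamma-delta T cells of the control mice and was at 72.8, 55.0 and 117 CPM in the HFD+F+CCl4 mice and 87.7, 149 and 106 CPM in the WD+F+CCl4 mice. It was at least 18.6-fold higher, with 61 UMIs against 0, and in Trdc-zero T cells it had 28 UMIs in NASH mice and 5 in control mice. The call was lost without control mouse 1 (edgeR adjusted p = 0.533) and no bound remained, since a count of 0 in control mouse 2 alone allows 179 CPM, above the 98.8 CPM of all NASH UMIs of Tns4 together.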
